A study of Homo sapiens with 3 samples.

Results

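The BCL2 family genes described here were 10 genes of the mitochondrial route to apoptosis, chosen by symbol from 59719 gene names. The survival genes were BCL2, BCL2L1 and MCL1, the effector genes were BAX and BAK1, and the BH3-only genes were BCL2L11, BBC3, PMAIP1, BID and BAD. The rule was a list of symbols and used no measured value. All 10 were found in the table, and 9 averaged at least 1 TPM in the 3 libraries, as did the 13637 genes compared. BCL2 did not.

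The study asked what follows when USP16, a deubiquitinase linked there to c-Myc, is depleted in prostate cancer cells. RNA-seq covered 3 cultures of PC3, an androgen-independent prostate cancer cell line, with 1 library each. The shCON cells carried a control vector, and the shUSP16#1 and shUSP16#2 cells each carried a different short hairpin against USP16. The hairpins were cloned in pLKO.1, and stable cells were selected in puromycin, so the libraries describe selected populations that had survived selection. Time after infection was not given in the sources used here. Expression is in TPM, which divides reads by transcript length and sets each library to the same total, which leaves sequencing depth unknown. With 1 library per condition there was no replicate, no error and no test. A change is the difference in log2(TPM + 1) between a hairpin library and shCON, and for genes of low level this scale makes changes look smaller. A gene was called lower or higher only if it changed at least 2-fold on this scale in the same direction under both hairpins, which were compared with the same shCON library.

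Proteins of the BCL2 family decide whether the outer mitochondrial membrane stays intact. Survival proteins bind and restrain the effectors BAX and BAK, BH3-only proteins bind the survival proteins or activate the effectors directly, and once BAX or BAK forms pores, cytochrome c leaves the mitochondrion and caspases are activated. Much of this control acts through protein binding, phosphorylation, cleavage and turnover, which mRNA levels do not record.

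The 2 hairpins differ in sequence, and are shown because any short antisense strand can also pair with other transcripts through its seed. Each antisense strand is printed from 5′ to 3′ with the seed, bases 2 to 8, in capitals.
shUSP16#1: aTAAACATgatttcttctggc
shUSP16#2: aAATCTTGtggaatatcaccg
The sense sequence of each hairpin matched the USP16 transcript 1 time and none of the 10 BCL2 family transcripts in full. The 7-base site that pairs with the seed of shUSP16#1, ATGTTTA, was found in 22.5% of 13296 transcripts of the compared genes, and that for shUSP16#2, CAAGATT, in 20.3%. Among the 10 family members, BCL2 held 2 sites for each hairpin, and BAK1 held 1 site for shUSP16#2, at base 585 of its transcript, shown here with the site in capitals.
BAK1: gagtacttcacCAAGATTgccaccagcct
MCL1 and PMAIP1, the members with the lowest changes below, held neither 7-base site. A match is a description of letters, not a measured site.

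USP16 was at 19.9 TPM in shCON cells, 3.5 TPM with shUSP16#1 and 1.08 TPM with shUSP16#2, changes of -2.22 and -3.33. MYC was at 238, 209 and 173 TPM in the same order. The median change of the compared genes was not 0 but -0.17 with shUSP16#1 and -0.37 with shUSP16#2, so values after centring on these medians are given as well. Change also followed the GC content of the transcript across 13296 genes, with rank correlations of 0.54 and 0.63 between change and GC content, given as descriptions over genes that share libraries. Values after removal of the GC trend still hold the medians of -0.17 and -0.37, and values after removal and centring are relative to the typical gene of the same GC content. The epithelial and PC3 markers EPCAM, KRT8, KRT18, CDH1 and VIM lay between 40.5 and 947 TPM, and of the 3 androgen axis markers KLK3 and KLK2 were listed at 0 and TMPRSS2 was at 1.13, 3.68 and 1.63 TPM, changes of 1.14 and 0.30. The 7 markers of other cell types summed to 4.77 TPM in shCON cells, 11.6 TPM with shUSP16#1 and 6.31 TPM with shUSP16#2. Most of each sum was COL1A1, at 4.19, 10.7 and 4.78 TPM, and PECAM1 was at 0.14, 0.72 and 1.28 TPM. PTPRC, CD3E and CDH5 were at 0.30 TPM or less, and DCN and HBB were listed at 0 in all libraries. In bulk libraries such as these, fewer cells that express a gene and less RNA per cell cannot be told apart.

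The family as a whole did not move in a single direction. Of the 9 members compared, MCL1, PMAIP1 and BCL2L11 were lower under both hairpins, BAX, BAK1, BBC3 and BAD were higher under both but not after removal of the GC trend, and BCL2L1 and BID had opposite signs. Among all compared genes, 57.2% were lower and 24.5% were higher under both hairpins. No member was called, beside 4.6% of all compared genes called lower and 1.14% called higher. Under shUSP16#1 alone 0 of 9 members were at least 2-fold lower, against 5.79% of compared genes, and under shUSP16#2 alone MCL1 and PMAIP1 were, 2 of 9 against 19.5%. The median change of the 9 members was 0.03 under shUSP16#1 and 0.0049 under shUSP16#2. After centring, 3 members were lower and 6 were higher under both hairpins, against 41.7% and 41.7% of compared genes, and both BCL2L1 and BID were then among the higher ones. After removal of the GC trend and centring, MCL1 and PMAIP1 were lower under both hairpins, 6 members were higher and BAK1 had opposite signs, against 38.5% of compared genes lower and 39.2% higher.

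**Figure D1:**
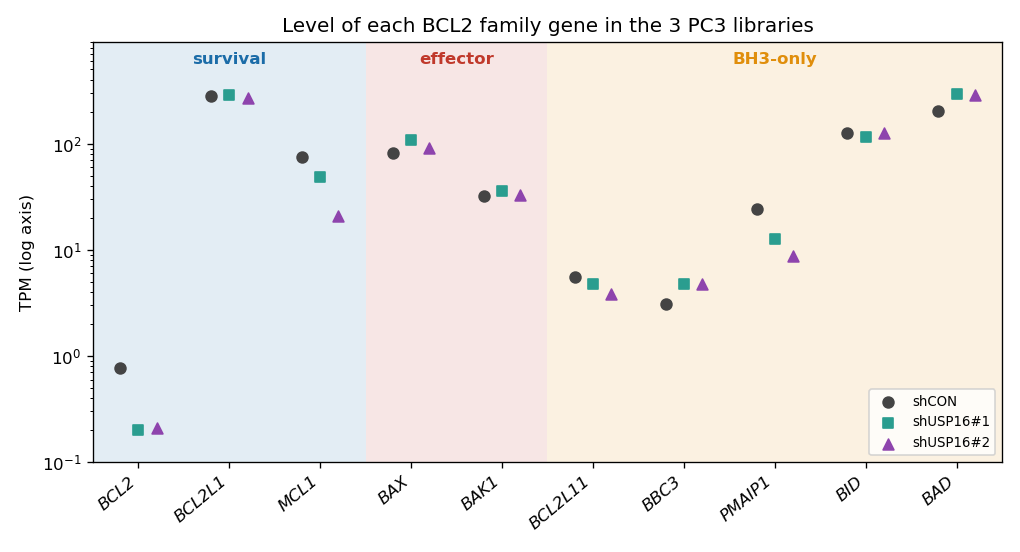
TPM on a log axis for each of the 10 BCL2 family genes in the shCON, shUSP16#1 and shUSP16#2 libraries, 1 point per library. BCL2L1 stays between 271 and 286 TPM, MCL1 runs from 75.3 TPM in shCON to 20.8 TPM under shUSP16#2, and BCL2 is under 1 TPM throughout.

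Among the survival genes, BCL2L1 (ENSG00000171552) was by far the most abundant and hardly differed between libraries. It encodes BCL-xL, which holds BAX, BAK and several BH3-only proteins, and lies on the reverse strand of chromosome 20 of GRCh38, from 31664452 to 31723989. BCL2L1 was at 281 TPM in shCON cells, 286 TPM with shUSP16#1 and 271 TPM with shUSP16#2, changes of 0.027 and -0.054. The level was highest with shUSP16#1 and lowest with shUSP16#2, both near shCON. In GENCODE release 29 the antisense gene ABALON shares 1424 of the 3314 exonic bases of BCL2L1. ABALON was at 2.94 to 3.39 TPM, and strand use in counting was not given in the sources used here, so reads of the pair cannot be separated.

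MCL1 (ENSG00000143384) was the member with the lowest change under shUSP16#2. It encodes a short-lived survival protein that binds BAK, BIM and NOXA, and lies on the reverse strand of chromosome 1, from 150574551 to 150579738. MCL1 was at 75.3 TPM in shCON cells, 48.1 TPM with shUSP16#1 and 20.8 TPM with shUSP16#2. Both hairpin libraries were below shCON, and shUSP16#2 was the lowest by a wide margin. The changes were -0.63 and -1.81, and in TPM the shCON level was 1.56 times that under shUSP16#1 and 3.63 times that under shUSP16#2. MCL1 stood at percentile 20.3 of the changes of all compared genes under shUSP16#1 and at percentile 1.81 under shUSP16#2. Its changes were -0.46 and -1.44 after centring and -0.42 and -1.5 after removal of the GC trend, or -0.25 and -1.14 with both steps.

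BCL2 (ENSG00000171791), the survival gene that names the family, was nearly absent. It lies on the reverse strand of chromosome 18, from 63123346 to 63320128. BCL2 was at 0.77 TPM in shCON cells, 0.20 TPM with shUSP16#1 and 0.21 TPM with shUSP16#2. Both hairpin libraries were lower, by -0.56 and -0.55 on the log2(TPM + 1) scale, at levels where the table's 2 decimals and the unknown depth leave the size of the change uncertain. With a pseudocount of 0.1 TPM in place of 1, the mean change was -1.51 and BCL2 passed 2-fold under both hairpins. BCL2 holds seed sites for both hairpins, and their part in its values was not tested.

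The pore-forming effectors were both a little higher under each hairpin, and both lost that direction on average when the GC trend was removed. BAX (ENSG00000087088), which moves from the cytosol to mitochondria when activated, lies on the forward strand of chromosome 19, from 48954815 to 48961798. BAX was at 81.5 TPM in shCON cells, 108 TPM with shUSP16#1 and 91.2 TPM with shUSP16#2, changes of 0.41 and 0.16. BAK1 (ENSG00000030110) encodes BAK, which sits in the outer membrane, and lies on the reverse strand of chromosome 6, from 33572547 to 33580293. It was at 31.95 TPM in shCON cells, 35.9 TPM with shUSP16#1 and 32.9 TPM with shUSP16#2, changes of 0.16 and 0.04. The order of the libraries was the same for both genes, with shUSP16#1 highest and shCON lowest. After removal of the GC trend the mean changes of BAX and BAK1 over both hairpins were -0.057 and -0.24. Set against the typical gene of the same GC content, BAX stood at 0.31 and 0.12 under the hairpins and BAK1 at 0.066 and -0.0063.

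Around its start site BAX held several E-boxes. The E-box CACGTG, a sequence bound by MYC with MAX and by other factors of the same kind, was searched for in RefSeq promoter windows of 300 bases, 250 before and 50 after the transcription start, on GRCh38.p14. The word reads the same on both strands. It was in 7.26% of 35116 windows, and in 4 of the 15 windows of members. By gene, 3 of the 9 members that had a window held it, BAX, BBC3 and BID. MCL1 had no window in the table used. The BAX window held 4 copies, which 0.0142% of all windows, 5 in number, reached. The part before the first annotated base of the gene, chr19:48954625-48954814 on the forward strand, is shown with its 2 copies in capitals, and the other 2 copies lie in the rest of the window.
BAX: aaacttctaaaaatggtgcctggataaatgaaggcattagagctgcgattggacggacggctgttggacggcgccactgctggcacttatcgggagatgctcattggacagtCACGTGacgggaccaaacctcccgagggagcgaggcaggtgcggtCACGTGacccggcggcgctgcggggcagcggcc
No binding was measured in these libraries. BBC3 and BID each had 1 copy in a window, BID in 2 of its windows, which overlap and may hold the same copy. These 3 genes did not change alike, with values of 0.50 under both hairpins for BBC3, 0.41 and 0.16 for BAX, and -0.12 and 0.0049 for BID.

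The BH3-only genes split. PMAIP1 and BCL2L11 were lower under both hairpins, BCL2L11 only until the GC trend was removed, BBC3 and BAD were higher under both but not on average after that removal, and BID was nearly level.

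PMAIP1 (ENSG00000141682) encodes NOXA, which binds MCL1 and speeds its degradation. It lies on the forward strand of chromosome 18, from 59899948 to 59904306. PMAIP1 was at 24.4 TPM in shCON cells, 12.75 TPM with shUSP16#1 and 8.83 TPM with shUSP16#2, changes of -0.89 and -1.37. The order of the libraries was that of MCL1. In TPM the shCON level was 1.92 and 2.77 times those under the hairpins. The changes were -0.72 and -1.004 after centring and -0.68 and -1.09 after removal of the GC trend, or -0.51 and -0.72 with both steps, so PMAIP1 stayed lower under both hairpins throughout. It stood at percentiles 9.20 and 7.73 of all compared genes.

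BCL2L11 (ENSG00000153094) encodes BIM, a direct activator of BAX and BAK that all survival proteins bind. It lies on the forward strand of chromosome 2, from 111119378 to 111168447. BCL2L11 was at 5.56 TPM in shCON cells, 4.72 TPM with shUSP16#1 and 3.87 TPM with shUSP16#2, changes of -0.20 and -0.43. These lay close to the medians of all compared genes, and after centring they were -0.027 and -0.062, while after removal of the GC trend and centring they were 0.19 and 0.24. The opposite-strand noncoding gene MIR4435-2HG, at 156 to 194 TPM, shares 727 of 6658 exonic bases with BCL2L11, and reads of the pair cannot be separated without strand.

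BBC3 (ENSG00000105327) encodes PUMA, which binds every survival protein. It lies on the reverse strand of chromosome 19, from 47220822 to 47232766. BBC3 was at 3.08 TPM in shCON cells, 4.79 TPM with shUSP16#1 and 4.77 TPM with shUSP16#2, a change of 0.50 under each hairpin. BAD (ENSG00000002330), whose protein binds BCL2, BCL-xL and BCL-w and is held inactive by survival-factor phosphorylation, lies on the reverse strand of chromosome 11, from 64269830 to 64284704. BAD was at 204 TPM in shCON cells, 291 TPM with shUSP16#1 and 288 TPM with shUSP16#2, changes of 0.51 and 0.49. In both genes the hairpin libraries were nearly equal and above shCON, although BBC3 was at a small fraction of the BAD level in TPM. Both genes are rich in GC, at 65.9% and 66.3% of the transcript, and after removal of the GC trend their mean changes were -0.031 and -0.034. With centring as well, BBC3 stood at 0.24 and 0.23 and BAD at 0.24 and 0.23, above the typical gene of the same GC content. BAD shares 404 of 1708 exonic bases with GPR137 on the opposite strand, which was at 40.6, 63.0 and 42.9 TPM.

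BID (ENSG00000015475) encodes the protein that caspase-8 cleaves to link death receptors to mitochondria. It lies on the reverse strand of chromosome 22, from 17734138 to 17774770. BID was at 125 TPM in shCON cells, 115 TPM with shUSP16#1 and 125 TPM with shUSP16#2, and shUSP16#1 was the lowest library. The changes were -0.12 and 0.0049, and 0.10 and 0.43 after removal of the GC trend and centring.

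**Figure D2:**
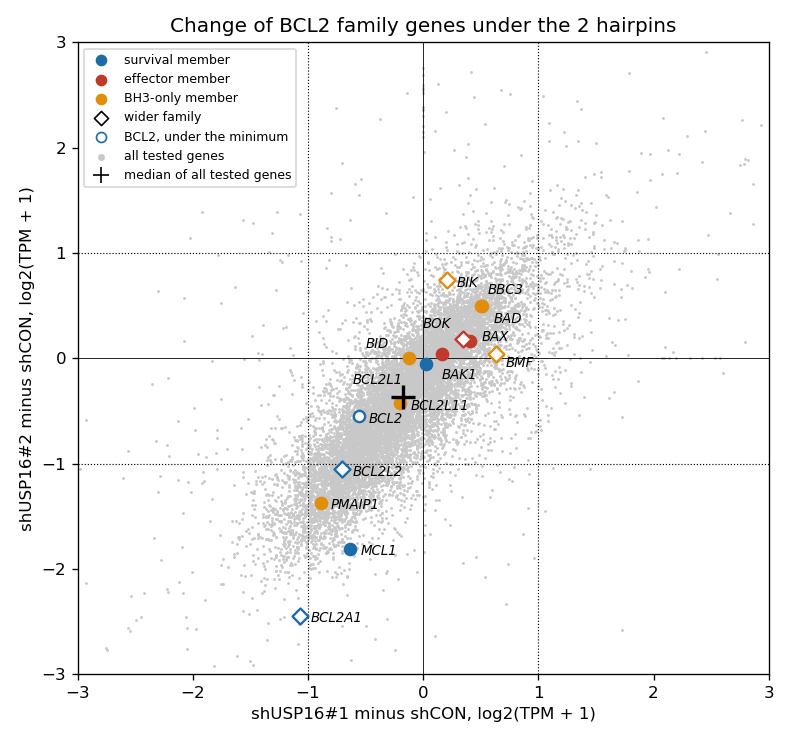
Change under shUSP16#1 (horizontal axis) against change under shUSP16#2 (vertical axis), both log2(TPM + 1) minus shCON, for all compared genes in grey and the BCL2 family in colour, with dotted lines at 2-fold. MCL1 and PMAIP1 lie below the 2-fold line of shUSP16#2 only, BBC3 and BAD lie together near 0.5 before any removal of the GC trend, 151 genes with a change beyond 3 are not drawn, and both axes share the shCON library.

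The order of the members changed with the hairpins, as TPM allows levels to be compared between genes per length. In shCON the order from the top was BCL2L1, BAD, BID, BAX, MCL1, BAK1, PMAIP1, BCL2L11, BBC3 and BCL2. BAD stood above BCL2L1 under both hairpins, at 291 against 286 TPM and at 288 against 271 TPM. MCL1 stood above BAK1 in shCON and under shUSP16#1 and below it under shUSP16#2, at 20.8 against 32.9 TPM. Without replicates, neighbours in this order cannot be said to differ beyond their spread.

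Summed over members, survival transcripts made up a smaller part of the family under each hairpin. The 3 survival genes summed to 357 TPM in shCON cells, 335 TPM with shUSP16#1 and 292 TPM with shUSP16#2. The 5 BH3-only genes summed to 362, 428 and 431 TPM. The 2 effectors summed to 113, 144 and 124 TPM. Survival genes were 42.9% of the family sum in shCON, 36.9% under shUSP16#1 and 34.5% under shUSP16#2, and BH3-only genes were 43.5%, 47.2% and 50.9%. The total over the 10 genes was 833, 907 and 846 TPM. A ratio within a library does not depend on how libraries are scaled, although it keeps the GC trend. For survival to BH3-only TPM the ratio was 0.985, 0.781 and 0.677, and that of survival to effector TPM was 3.15, 2.32 and 2.35. BCL2L1, BAD and BAX were the most abundant genes of the survival, BH3-only and effector sums. The fall of the survival sum lay mostly with MCL1, at 75.3, 48.1 and 20.8 TPM, while BCL2L1 stayed between 271 and 286 TPM. The rise of the BH3-only sum lay with BAD, at 204, 291 and 288 TPM. Without the most abundant gene of each sum, the survival genes left were MCL1 and BCL2, which was under 1 TPM, and the only effector left was BAK1. The survival to BH3-only ratio was then 0.481, 0.353 and 0.147, and the survival to effector ratio was 2.38, 1.35 and 0.638. Both reduced ratios thus follow MCL1.

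Ratios between single genes differed in direction. BCL2L1 to MCL1, the 2 expressed survival genes, stood at 3.73 in shCON, 5.95 under shUSP16#1 and 13.0 under shUSP16#2, so BCL2L1 made up a larger part of the survival transcripts under each hairpin. MCL1 to BAK1 was 2.36, 1.34 and 0.632, which is nearly the same quantity as the reduced survival to effector ratio above and not a separate result. BCL2L1 to BAD was 1.37, 0.982 and 0.940, and BAX to BAK1 was 2.55, 3.02 and 2.78. MCL1 to PMAIP1, whose proteins bind each other, had no shared direction, at 3.08 in shCON cells, 3.78 with shUSP16#1 and 2.35 with shUSP16#2.

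The order of the members by change was close to their order by GC content. MCL1, BCL2L11, PMAIP1 and BCL2, at 45.1% to 45.6% GC, had the 4 lowest mean changes, and BAK1, BAX, BBC3 and BAD, at 58.8% to 66.3% GC, had the 4 highest. The rank correlation of change with GC content over the 10 genes was 0.94 under each hairpin, and over 17 genes with the wider family it was 0.75 and 0.84. These values describe genes measured in the same 3 libraries. After removal of the GC trend without centring, 4 of the 9 members compared lay below 0 under both hairpins and 0 above it, beside 60.4% and 17.8% of compared genes. MCL1 and PMAIP1 kept mean changes of -0.96 and -0.89, and the other 7 compared members had mean changes between -0.24 and 0. The part of GC content in these values was not tested.

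**Figure D3:**
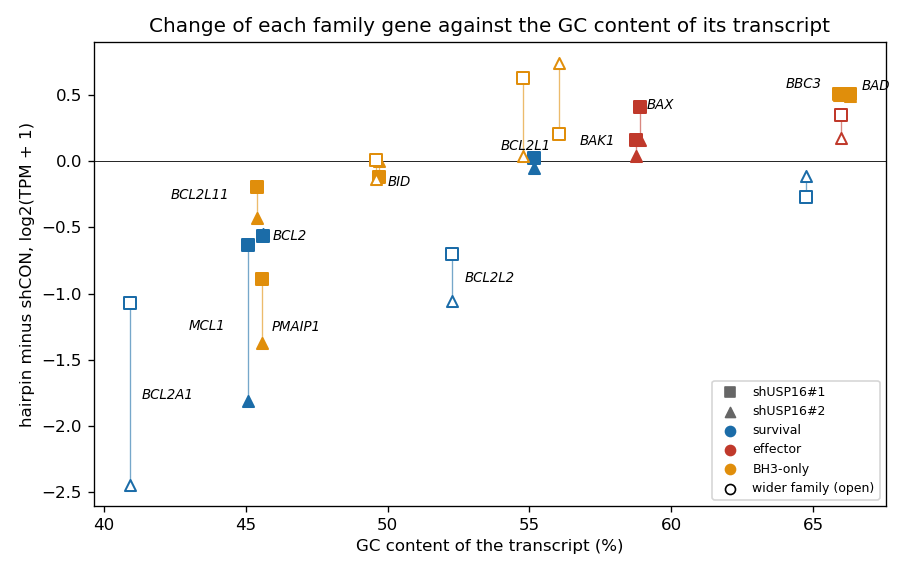
Change of each BCL2 family gene, as the difference in log2(TPM + 1) from shCON, against the GC content of its transcript in percent, with squares for shUSP16#1 and triangles for shUSP16#2. Members near 45% GC lie below 0, with MCL1 at -0.63 and -1.81, and BBC3 and BAD, near 66%, lie near 0.5, a direction they do not keep after removal of the GC trend without centring.

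The 7 other family genes fixed as a list gave a further low survival gene. BCL2A1, a survival gene induced by NF-κB, was at 38.2 TPM in shCON cells, 17.7 TPM with shUSP16#1 and 6.19 TPM with shUSP16#2. Its changes were -1.07 and -2.45. BCL2A1 was the only gene called lower among the 14 family genes compared, 7.14% beside 4.6% of all compared genes. It was not called after centring, at -0.90 and -2.08, or after removal of the GC trend, at -0.64 and -1.86, and with both steps it stood at -0.47 and -1.496. BCL2L2, which encodes the survival protein BCL-w, was at 23.5, 14.1 and 10.8 TPM, changes of -0.70 and -1.05, and stood at -0.57 and -0.77 after removal of the GC trend and centring, its GC content being 52.3%. The read-through gene BCL2L2-PABPN1 shares 813 exonic bases with BCL2L2 on the same strand and was at 6.31, 12.6 and 11.4 TPM, so the split between the pair is uncertain. The 3 survival genes BCL2L2, BCL2A1 and MCL1 were thus below shCON under both hairpins and lowest under shUSP16#2. The effector-like BOK was at 54.4, 69.4 and 61.7 TPM, with a mean change of 0.26 that turned to -0.27 after removal of the GC trend. With centring as well, BOK stood at 0.083 and -0.086. The BH3-only genes BIK and BMF were at 39.8, 46.02 and 67.1 TPM and at 3.36, 5.75 and 3.49 TPM, both above shCON under both hairpins, and above the typical gene of the same GC content under both. BCL2L10 and HRK were under the minimum, at 0.72 to 1.07 TPM and 0.11 to 0.23 TPM. Over the 4 survival genes with at least 1 TPM, 3 were lower under both hairpins, and over the 3 effectors 0 were, beside 57.2% of all compared genes. The effector count depended on the GC trend, since after its removal BAK1 and BOK lay below 0 under both hairpins, and after removal and centring 3 of the 4 survival genes and 0 of the 3 effectors did, beside 38.5% of compared genes.

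Downstream of the mitochondrion, 4 genes of the apoptosome and of the caspases it feeds were compared, and 4 of 4 were lower under both hairpins, beside 57.2% of all compared genes. CYCS, which encodes the cytochrome c that leaves the mitochondrion, was at 149 TPM in shCON cells, 60.4 TPM with shUSP16#1 and 54.5 TPM with shUSP16#2, changes of -1.29 and -1.43, and was the only one called. APAF1, the scaffold of the apoptosome, was at 2.10, 1.51 and 0.92 TPM, and CASP9, its caspase, at 8.08, 7.15 and 5.32 TPM. CASP6 was at 25.3, 20.5 and 18.1 TPM. The median change of the 4 was -0.30 with shUSP16#1 and -0.61 with shUSP16#2, beside -0.17 and -0.37 for all compared genes. Among all compared genes 4.6% were called lower. After removal of the GC trend and centring only CYCS and CASP9 of the 4 were lower under both hairpins, at -0.79 and -0.62 for CYCS, and none was called. Of all compared genes, 38.5% were then lower under both hairpins and 0.931% were called lower.

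The listed inhibitor of apoptosis genes, whose proteins hold caspases in check or mark them for degradation, were lower under both hairpins in 5 of 5 cases, beside 57.2% of all compared genes. XIAP, a direct inhibitor of caspases, was at 18.7 TPM in shCON cells, 7.27 TPM with shUSP16#1 and 4.23 TPM with shUSP16#2, changes of -1.25 and -1.91. BIRC2, which encodes cIAP1, was at 17.9, 7.55 and 5.63 TPM, changes of -1.14 and -1.51. XIAP and BIRC2 were the 2 called lower, where 4.6% of all compared genes were called. After centring XIAP was still called and BIRC2 was not, beside 2% of compared genes. After removal of the GC trend neither was, beside 2.03%. BIRC3, at 5.95, 2.72 and 1.4 TPM, and BIRC6, at 9.77, 5.08 and 3.74 TPM, passed 2-fold on the log2(TPM + 1) scale under shUSP16#2 only. In TPM the shCON level of BIRC3 was 2.19 times that under shUSP16#1. With a pseudocount of 0.1 TPM in place of 1, BIRC3 was called lower, with a mean change of -1.56. BIRC5, which encodes the mitotic protein survivin, was at 200 TPM in shCON cells, 149 TPM with shUSP16#1 and 148 TPM with shUSP16#2. The median change of the 5 was -0.90 and -1.51. XIAP, BIRC2 and BIRC3 were at 38.0% to 39.1% GC, BIRC6 at 43.1% and BIRC5 at 52.2%, beside a median of 49.9% for all compared genes. All 5 were lower under both hairpins also after removal of the GC trend and centring, beside 38.5% of compared genes, with XIAP at -0.64 and -0.85. DIABLO and HTRA2, whose proteins leave the mitochondrion and neutralise these inhibitors, were at 59.1, 66.3 and 70.4 TPM and at 33.7, 43.5 and 39.3 TPM. Both were above shCON under both hairpins, and HTRA2 was not after removal of the GC trend, with a mean change of -0.13. Set against the typical gene of the same GC content, DIABLO stood at 0.37 and 0.70 and HTRA2 at 0.18 and 0.092.

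The death receptor arm, which runs through caspase-8 and BID, had no call among 8 genes. Among all compared genes 4.6% were called lower and 1.14% higher. Of the 8 genes, 4 were below shCON with both hairpins, 2 were above shCON with both, and 2 had opposite signs. The shares among all compared genes were 57.2% lower and 24.5% higher. The balance turned after centring, with 1 lower and 5 higher, beside 41.7% and 41.7% of compared genes. It was also 1 and 5 after removal of the GC trend and centring, beside 38.5% and 39.2%. TNFRSF10A, a TRAIL receptor, was at 19.7, 13.0 and 12.4 TPM, the lowest mean change of the list at -0.60. FADD, the adaptor, was at 73.6, 84.75 and 83.3 TPM, with a mean change of 0.19 that became -0.15 after removal of the GC trend. With centring as well, FADD stood at 0.10 and 0.13. CFLAR, which encodes the caspase-8 inhibitor c-FLIP, was at 34.3, 27.1 and 28.4 TPM. The list's median changes were 0.0051 and -0.26. The voltage-dependent anion channels, outer membrane partners of BAK, were lower under both hairpins in 3 of 3 cases, beside 57.2% of all compared genes, with none called. After removal of the GC trend and centring 0 of the 3 were lower and 1 was higher under both, beside 38.5% and 39.2%. VDAC2, which holds BAK at the membrane, was the most abundant at 529, 415 and 381 TPM.

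**Figure D4:**
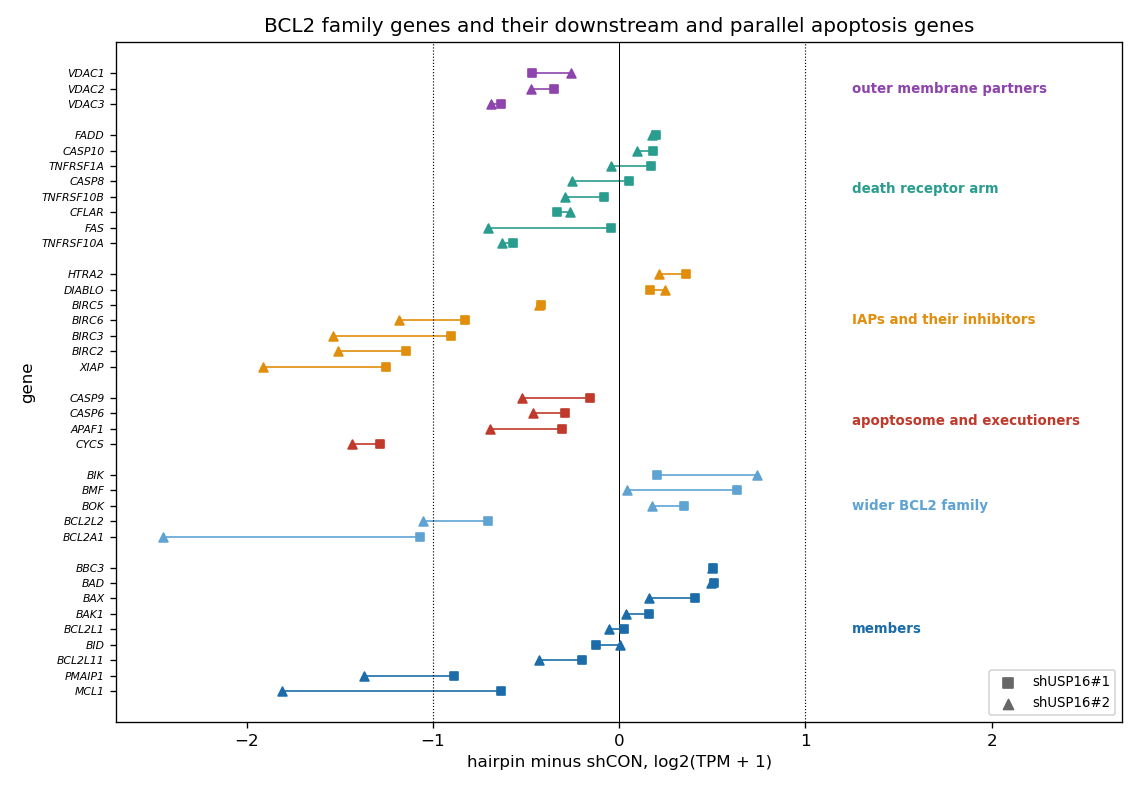
Change of each gene with at least 1 TPM in the fixed apoptosis lists other than the regulators, as the difference in log2(TPM + 1) from shCON, with squares for shUSP16#1, triangles for shUSP16#2 and dotted lines at 2-fold. BCL2A1, CYCS, XIAP and BIRC2 lie beyond 2-fold lower under both hairpins, before centring or removal of the GC trend, and no plotted gene lies beyond 2-fold higher.

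Of 8 regulators of the family, FOXO3 was the only gene called, where 4.6% of all compared genes were called lower. With a pseudocount of 0.1 TPM in place of 1, FBXW7 was called lower as well, with a mean change of -1.46. FOXO3, a transcription factor of BCL2L11, BBC3 and PMAIP1, was at 8 TPM in shCON cells, 3.22 TPM with shUSP16#1 and 2.86 TPM with shUSP16#2. Its changes were -1.09 and -1.22, and -0.92 and -0.85 after centring, where it was not called. The ubiquitin ligases HUWE1 and FBXW7, which mark MCL1 for degradation, were at 41.2, 30.3 and 19.97 TPM and at 3.63, 1.41 and 1.12 TPM. USP9X, a deubiquitinase that stabilises MCL1, was at 5.74, 3.03 and 1.90 TPM. These 3 turnover genes were lower under both hairpins, beside 57.2% of all compared genes. They were lower also after removal of the GC trend and centring, beside 38.5%. The stress factor ATF4 was at 340, 369 and 351 TPM, and TP73 at 1.90, 2.25 and 2.63 TPM. Both were above shCON under both hairpins but not on average after removal of the GC trend. With centring as well, ATF4 stood at 0.19 and 0.29 and TP73 at 0.021 and 0.20. DDIT3 and E2F1 had opposite signs under the hairpins.

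Across the 44 listed apoptosis genes with at least 1 TPM, 5 were called lower, which were BCL2A1, CYCS, XIAP, BIRC2 and FOXO3, where 4.6% of all compared genes were. After centring CYCS and XIAP were called, 2 of 44 against 2% of compared genes. After removal of the GC trend FOXO3 was called, 1 of 44 against 2.03%, and with both steps 0 were, against 0.931%. The lists were written with earlier results of these data known, and their counts are descriptions.

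The apoptosis pathway as the deposited table annotates it from KEGG gave a wider background. It listed 635 names, many of them not protein-coding, and 138 had at least 1 TPM. Of these, 74 were lower and 36 were higher under both hairpins, beside 57.2% and 24.5% of all compared genes, and 7 were called lower and 0 higher. After centring 54 were lower and 65 higher, beside 41.7% and 41.7% of all compared genes. After removal of the GC trend and centring 58 were lower and 49 higher, beside 38.5% and 39.2%. The called share of 5.07% was near the 4.6% of all compared genes. Among the 7 were LMNB1, CYCS, XIAP, MAPK8, BIRC2 and BCL2A1. LMNB1, a nuclear lamin that caspases cleave, had the largest shared decrease, from 37.1 TPM in shCON to 13.8 TPM under shUSP16#1 and 12.45 TPM under shUSP16#2. At the other end stood MAP3K14-AS1, an antisense gene annotated with the pathway, at 3.92, 8.33 and 9.38 TPM, the kinase gene MAPK3 at 24.4, 37.2 and 37.9 TPM, and then BBC3, the BCL2 family gene with the largest increase shared by both hairpins. MAP3K14-AS1 and MAPK3 were higher under both hairpins also after removal of the GC trend, and BBC3 was not. The median change of the 138 was -0.11 under shUSP16#1 and -0.32 under shUSP16#2. With protein-coding genes only, 110 were compared and the same count of 7 was called lower.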

How the data were processed

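RNA-seq libraries were made with the Illumina TruSeq kit from total RNA of 3 PC3 cultures, 1 per condition. The authors deposited a table of TPM values with 2 decimals for 60930 entries. CASAVA, HISAT2 and hg19 are named in the submitters' processing notes, and the quantification tool, annotation and strand use are not given in the sources used here. A set of 3 repeated columns was not used, and depth is unknown. For repeated names the entry with the highest mean was kept (1211 left out), and 13637 genes averaging at least 1 TPM were compared on log2(TPM + 1), without a test. Of the identifiers, 57308 matched GENCODE release 29, whose GRCh38 coordinates and transcripts were used without conversion. For the GC trend, genes were put in 50 bins of GC content and the deviation of each bin's median change from that of all genes was taken off. Promoter windows were from RefSeq (GRCh38.p14), and hairpin sequences from the study's oligo list. All members, whole lists and the 3 KEGG genes lowest and highest under both hairpins were named. Some genes of the lists are not reported here and were left out of the list counts. Members and lists were chosen with earlier results of these data known. Alternatives were a pseudocount of 0.1 TPM, other minimums (none and 5 TPM), centring, rescaling to protein-coding genes, each hairpin alone, GC removal and, chosen after seeing the data, GC removal with centring and protein-coding KEGG genes only. Scripts were tested on simulated data. The software was matplotlib 3.10.9, pandas 2.3.3 and numpy 2.4.6 with scipy 1.17.1 in Python 3.11.15.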

Additional observations from a re-analysis of the deposited data

Results flagged for a closer look

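Several genes changed in opposite directions under the 2 hairpins, and in none was the difference between the hairpins tested, since each had 1 library. BCL2L1 changed by 0.027 under shUSP16#1 and by -0.054 under shUSP16#2, and BID by -0.12 and 0.0049, all close to 0 on the log2(TPM + 1) scale. In the death receptor arm TNFRSF1A changed by 0.17 and -0.043, and CASP8 by 0.056 and -0.25. Among the regulators DDIT3, a transcription factor of the stress response, changed by 0.39 and -0.32, and E2F1 by -0.14 and 0.023. DDIT3 had the widest gap of the 6, from 37.9 TPM under shUSP16#1 to 22.9 TPM under shUSP16#2, with 28.75 TPM in shCON.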

How the results depend on the processing

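No paired analysis was possible because the study has 1 library per condition, and without replicates or depth no change has an error. With shUSP16#2 alone, 2 members were at least 2-fold lower against 0 with both hairpins. With the GC trend removed, 0 members were higher under both hairpins against 4. Of 138 KEGG apoptosis genes, 7 were called lower, against 4.6% of all compared genes. The count was 3 after centring, against 2%, 11 with shUSP16#1 alone, against 5.79%, and 23 with shUSP16#2 alone, against 19.5%. It was 1 with the GC trend removed, against 2.03%, and 0 with the GC trend removed and centring, against 0.931%. With a pseudocount of 0.1 TPM it was 13, without a share of all compared genes to set beside it. KEGG apoptosis genes called higher numbered 0, against 1.14% of all compared genes. The count was 1 with a pseudocount of 0.1 TPM, 1 after centring, 3 with shUSP16#1 alone and 3 with shUSP16#2 alone. No share of all compared genes called higher was computed at these settings, and the 1.14% does not apply to them. The mean log2 change of the survival to BH3-only ratio was -0.44, and -1.08 without the most abundant gene of each sum, and that of the survival to effector ratio was -0.43 and -1.36. The survival sum without its most abundant gene was nearly all MCL1. The causes were not tested. Among alternative values of single members' changes, 64 left the member uncalled with little movement of the mean change. Another 1 left it uncalled but moved by over 1.5-fold, which was MCL1 at -0.63 with shUSP16#1 alone. The other 3 became at least 2-fold lower by the rule of their setting. These were BCL2 with a pseudocount of 0.1 TPM, at -1.51, and MCL1 and PMAIP1 with shUSP16#2 alone, where only that hairpin had to pass. In the main setting the mean changes of MCL1 and PMAIP1 were -1.22 and -1.13, but a call needed 2-fold under each hairpin.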

Other observations

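Relatives outside the fixed lists, chosen after earlier results of these data were known, were read as values. FKBP8, an anchor of BCL2 and BCL-xL at mitochondria, was at 200 TPM in shCON cells and 301 TPM with each hairpin, with changes of 0.59 and 0.58 that became 0.15 and -0.050 after removal of the GC trend. BNIP2, a BCL2-interacting protein, was at 32.5, 12.75 and 6.37 TPM, changes of -1.29 and -2.19, and kept -0.90 and -1.58 after that removal. The mitophagy receptors BNIP3 and BNIP3L did not go together. BNIP3 was at 73.4, 52.5 and 87.1 TPM and BNIP3L at 22.6, 15.4 and 13.8 TPM. The changes of BNIP3L were -0.53 and -0.68, and became -0.088 and 0.018 after removal of the GC trend. BAG1, a BCL2-binding co-chaperone, was at 95.1, 126 and 78.3 TPM. TMBIM6, which encodes BAX inhibitor 1, was at 345, 292 and 251 TPM, and its changes after centring were -0.067 and -0.087. The other relatives read moved less than BNIP2. BCL2L12 was at 149, 141 and 149 TPM, BCL2L13 at 31.9, 24.6 and 23.4 TPM, and BNIP1 at 18.2, 21.0 and 16.0 TPM. BAG3 was at 25.2, 22.2 and 22.2 TPM and BAG6 at 187, 195.5 and 173 TPM. BCL2L14 and BCL2L15 were at 0.14 TPM or less.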
